A study of Homo sapiens with 12 samples.

Results

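WI-38 human fibroblasts, a diploid line from embryonic lung, were compared after transfection with siRNA against STING and after transfection with a control siRNA. The comparison used 4 of the 12 libraries of the study: 2 titled siSTING4x_siAS (replicates 13 and 14, the STING group) and 2 titled siAS_siAS (replicates 1 and 2, the control group). These libraries were chosen by their labels alone, with no measured value, and all genes in the table entered. Cells of both groups received the control siRNA siAS. It filled both transfection slots in the control group and 1 of 2 slots in the STING group, where the other held the STING siRNA. The labels give neither the siRNA doses or sequences, the time after transfection, nor the meaning of the 4x in the titles. The remaining 8 libraries gave 4 groups of 2. YT cells received siRNAs against YAP and TAZ, cGAS cells received cGAS siRNA with siAS, and cGAS_YT and STING_YT cells received cGAS or STING siRNA together with the YAP and TAZ siRNAs. The STING_YT and YT libraries were used to ask how the same STING siRNA acted in other cells of the line.

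STING is a membrane protein of the endoplasmic reticulum that binds the cyclic dinucleotide made by cGAS, a sensor of DNA in the cytosol. On activation STING travels to the Golgi, where it recruits the kinase TBK1. TBK1 phosphorylates the transcription factor IRF3, which turns on type I interferon, and STING also feeds NF-kB and autophagy. Secreted interferon binds IFNAR receptors and acts through JAK and STAT proteins on a set of antiviral genes, the interferon-stimulated genes. Fibroblasts carry the whole pathway and also make and contract the extracellular matrix under the control of TGF-beta.

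Each value is a count of reads from transcript 3' ends relative to library size, in CPM (reads scaled to a common depth), scaled between libraries by the authors. The 4 libraries held between 18134404 and 19875656 reads. The 2 STING libraries correlated at r = 0.995 over log2(CPM + 1) of 13894 genes, with 32 genes over 2-fold apart, and the 2 control libraries at r = 0.993, with 77 such genes. Both pairs differed by more than sampling noise, so each library was counted. Several families of transcripts separated libraries within a group. STING replicate 14 was above replicate 13 in 39 of 42 interferon-stimulated genes, and both replicate 14 and control replicate 1 were above their partner in 13 of 13 mitochondrial transcripts, beside 45.6% and 47.7% of all genes. The opposite held for ribosomal protein genes, of which 2 of 29 were higher in STING replicate 14 than in 13 and 4 of 29 higher in control replicate 1 than in 2, and 18 of 21 collagens were higher in control replicate 1. Nothing in the labels says that the replicates were separate cultures, so p-values measure the spread between these libraries, which may be technical. In bulk RNA, less transcript per cell and fewer cells holding it cannot be told apart. All 12 fibroblast markers were measured, with a summed level of 33511 to 34088 CPM in control and 30511 to 30766 CPM in STING libraries. Of the markers of other cells, 4 of 10 epithelial, 1 of 6 endothelial, 2 of 8 haematopoietic, 5 of 6 pericyte or smooth muscle and 2 of 5 neural genes were in the table. Their summed levels were 49.8 to 58.4 CPM in control and 54.6 to 55.1 CPM in STING libraries for epithelial genes and 3.98 to 4.57 and 4.94 to 5.36 CPM for haematopoietic genes. Pericyte or smooth muscle genes summed to 209 to 213 and 142 to 156 CPM, neural genes to 2.95 to 5.55 and 1.34 to 2.0 CPM, and the 1 endothelial gene, TEK, stood at 68.7 to 71.7 and 49.4 to 53.3 CPM. The defining markers EPCAM, PECAM1 and PTPRC were searched for but were not among the genes in the table. The part of other cells in the results was not tested.

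The transcript of STING itself, listed as TMEM173 (now STING1, chr5:139475534-139482935, minus strand, GRCh38), fell to 7.39% of control. The control libraries held 24.5 and 23.6 CPM of it and the STING libraries 1.79 and 1.77 CPM. The groups did not overlap, and the log2 difference of log2(CPM + 1) was -3.17 ± 0.16 (± standard error, limma with Benjamini-Hochberg adjustment over 13894 genes, adjusted p = 4.18e-09, n = 2 and 2). The YT libraries held 18.1 and 19.2 CPM and the STING_YT libraries 1.28 and 1.93 CPM, a difference of -2.93 (limma adjusted p = 2.22e-09). The 2 cGAS libraries were at 28.4 and 29.9 CPM and the 2 cGAS_YT libraries at 25.6 and 21.0 CPM. In every group without STING siRNA the transcript was therefore above 18 CPM, and in both groups with it below 2 CPM.

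**Figure D1:**
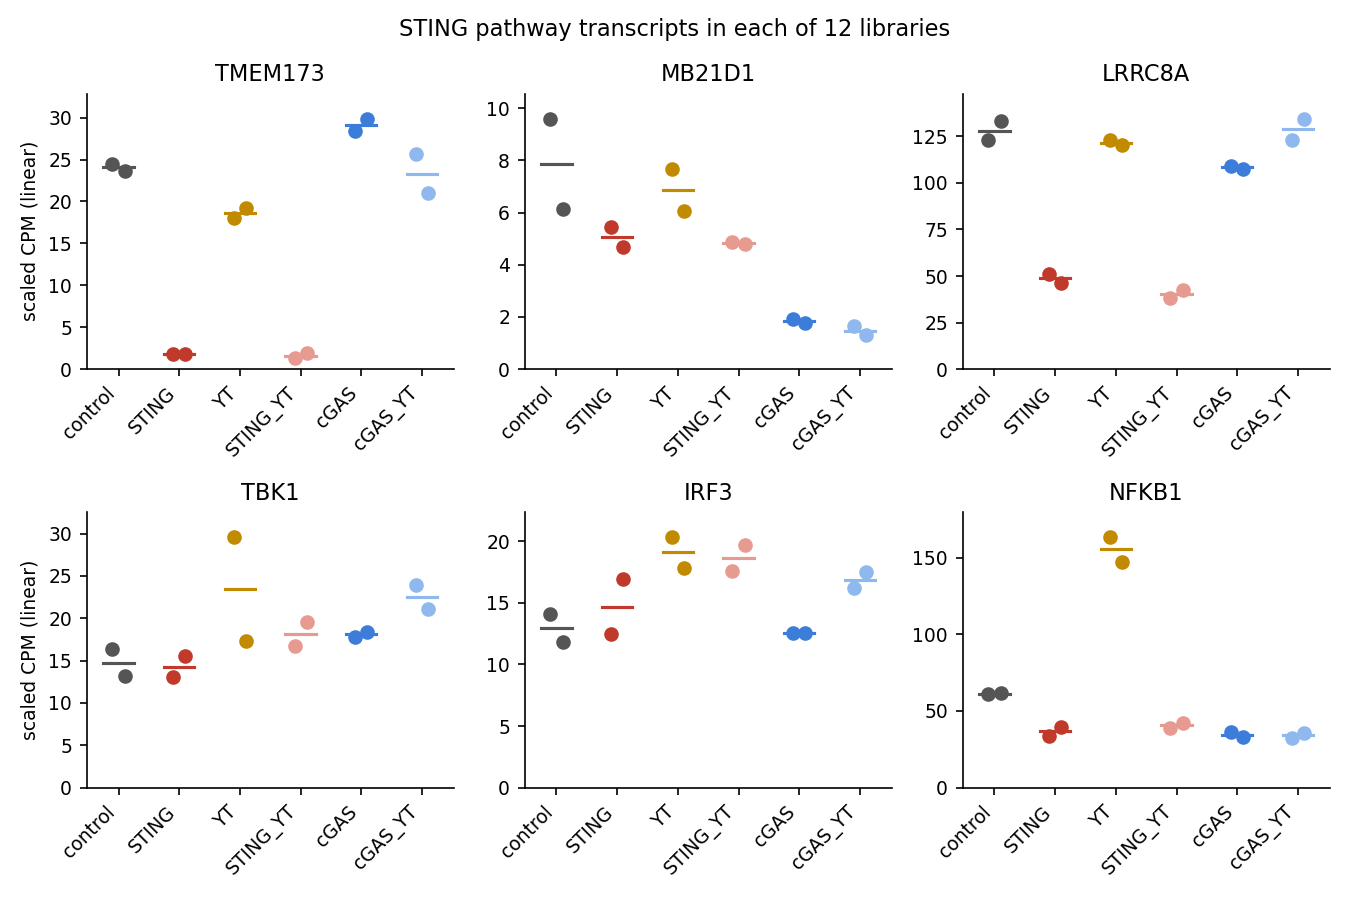
Scaled CPM (linear axis from 0) of 6 transcripts in each of the 12 libraries, with points for libraries and bars for the mean of each pair. TMEM173 and LRRC8A lie low in the STING and STING_YT groups, while TBK1 and IRF3 overlap between STING and control.

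Around TMEM173, 853 genes (6.14% of 13894 tested) were higher and 1231 (8.86%) lower in STING than in control cells at an adjusted p of 0.05 (limma), or 15% in either direction. Of these, 62 were at least 2-fold higher and 155 at least 2-fold lower on the log2(CPM + 1) scale, and the median change over all genes was 0.00. TMEM173 had the largest fall on this scale of all genes tested. edgeR on the reads recovered from the table called 825 genes higher and 1218 lower. The counts rested on having 2 libraries a side: 1105 calls were made without control replicate 1, 1317 without control replicate 2, 941 with STING replicate 13 left out and 879 with replicate 14 left out.

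**Figure D2:**
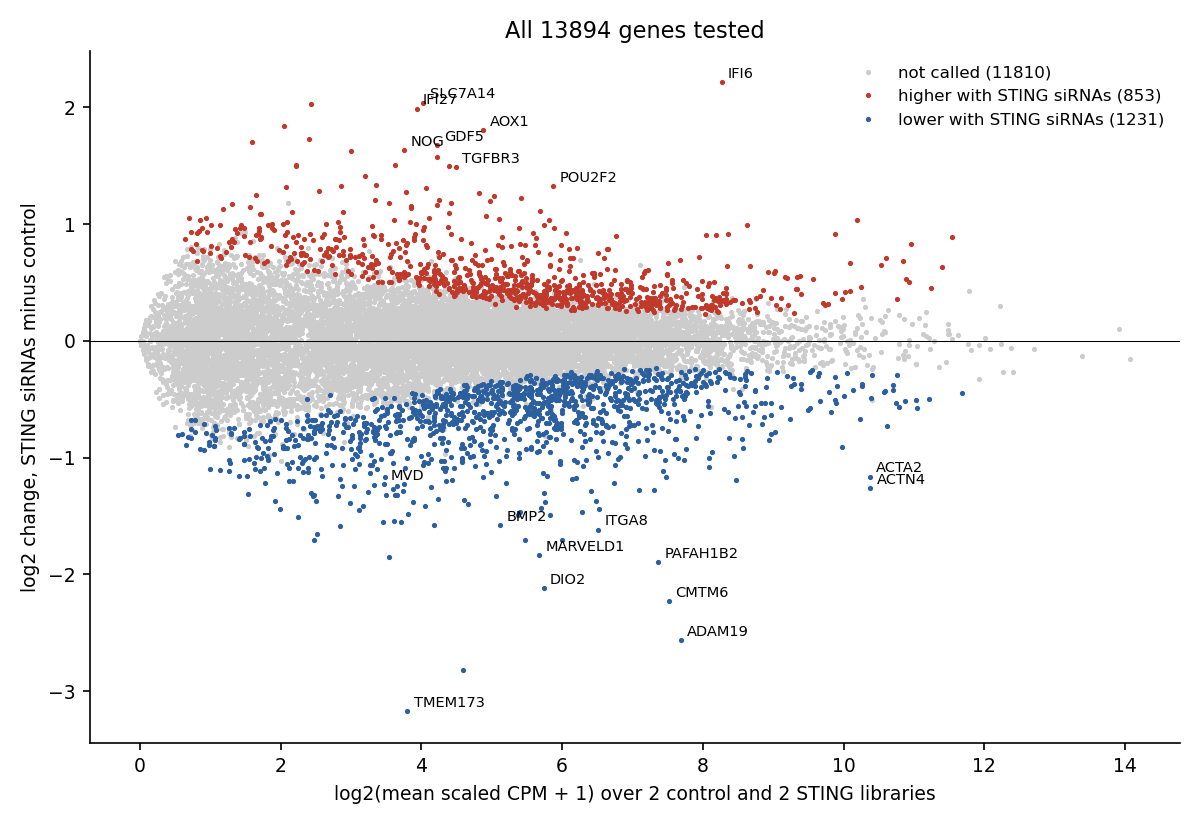
Log2 change between STING and control libraries (vertical axis, log2(CPM + 1) scale) against the log2 mean level over these 4 libraries, with 1 point per gene, 853 called higher in red and 1231 called lower in blue. TMEM173, ADAM19 and CMTM6 lie at the bottom and IFI6 at the top.

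The transcripts that fell most after STING siRNA, beside TMEM173, encoded proteins of varied roles. ADAM19, a membrane metalloprotease (chromosome 5, minus strand), was at 361 and 340.2 CPM in control and 57.4 and 59.4 CPM in STING libraries, a fall to 16.6% (-2.57 ± 0.07, limma adjusted p = 2.13e-12). CMTM6, which keeps the checkpoint ligand PD-L1 at the cell surface, went from 298 and 305 to 70.8 and 56.9 CPM (-2.23 ± 0.10). DIO2, the deiodinase that makes active thyroid hormone, went from 95.2 and 76.8 to 18.5 and 19.4 CPM (-2.12 ± 0.11). In each of these the lowest control library was at least 3 times the highest STING library. PAFAH1B2, a catalytic subunit of a platelet-activating factor acetylhydrolase, fell from 256 and 262 to 76.1 and 62.7 CPM (-1.89 ± 0.09). MARVELD1, a membrane protein with a MARVEL domain, fell from 79 and 78.7 to 22.4 and 20.4 CPM (-1.84 ± 0.14), and ARL6IP1, which shapes the endoplasmic reticulum, from 65.1 and 69.4 to 21.1 and 18.8 CPM (-1.71 ± 0.18). GINM1, a glycoprotein membrane protein, fell from 93.8 and 99.1 to 32.3 and 25.9 CPM (-1.70 ± 0.10). The matrix receptor subunit ITGA8 (integrin alpha 8) stood at 136 and 137 CPM in control and 44.6 and 43.2 CPM in STING cells (-1.62 ± 0.11). EDEM2, which trims mannose from misfolded glycoproteins, went from 25.9 and 26.2 to 8.51 and 7.62 CPM (-1.58 ± 0.15), and the growth factor BMP2 from 52.2 and 49.7 to 14.3 and 18.8 CPM (-1.58 ± 0.13). INSC, an adaptor in spindle orientation, went from 10.9 and 8.58 to 2.47 and 2.63 CPM (-1.59 ± 0.32, limma adjusted p = 0.00266). The 3 remaining genes of the 15 most lowered carry clone names and were matched to no annotation used here: RP4-530I15.6 at 44.2 and 38.2 against 4.10 and 5.95 CPM, RP11-342K6.1 at 17.6 and 16.8 against 4.83 and 3.38 CPM, and RP11-1334A24.5 at 21.0 and 15.7 against 4.20 and 7.19 CPM. None of the 15 overlapped between groups, a condition of their choice.

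All 15 of these genes were also called lower in STING_YT than in YT libraries, which are separate from the libraries above. ADAM19 was at 329.9 and 328 CPM in YT and 87.2 and 89.8 CPM in STING_YT cells (-1.88), CMTM6 at 241 and 236 against 32.4 and 37.5 CPM (-2.74) and PAFAH1B2 at 188 and 188 against 44.2 and 45.8 CPM (-2.04). BMP2 fell from 474 and 440.2 to 60.6 and 77.3 CPM (-2.72). The fall of BMP2 was larger there than in cells without YAP and TAZ siRNAs (interaction -1.14 ± 0.19, limma adjusted p = 8.96e-04), while that of ADAM19 was smaller (interaction 0.68 ± 0.11, adjusted p = 5.71e-04). For PAFAH1B2 the interaction was -0.15 ± 0.12 and missed the threshold. The cGAS libraries held 499.9 and 484 CPM of ADAM19, 377 and 388 CPM of CMTM6 and 259 and 260.5 CPM of PAFAH1B2, all above the STING libraries in a direct test (STING minus cGAS -3.05, -2.57 and -1.90, the largest limma adjusted p being 4.27e-10). ITGA8, BMP2 and INSC were instead about as low with cGAS siRNA, at 35.9 and 37.7, 15.7 and 14.7 and 3.55 and 0.835 CPM. The direct differences of 0.25 ± 0.11, 0.10 ± 0.13 and 0.30 ± 0.32 missed the threshold. So did that of RP11-342K6.1 (4.88 and 5.55 CPM with cGAS siRNA, -0.30 ± 0.19). RP4-530I15.6 and MARVELD1 also fell with cGAS siRNA, to 9.03 and 7.51 and to 34.1 and 39.3 CPM. Both were lower still in STING libraries (-0.63 ± 0.20 and -0.75 ± 0.14). DIO2 and ARL6IP1 were called lower in cGAS than in control libraries as well, by less (-0.31 and -0.57).

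The genes that rose most after STING siRNA included 3 interferon-stimulated genes, IFI6, IFI27 and IFI44L, and 12 of other roles. IFI6, an antiviral membrane protein (chr1:27666061-27672218, minus strand, GRCh38), was at 102 and 109 CPM in control and 386 and 630.3 CPM in STING libraries, a mean 4.81-fold rise (2.21 ± 0.21, limma adjusted p = 2.71e-06). SLC7A14, a lysosomal transporter-like protein, rose from 6.23 and 4.60 to 24.7 and 25.6 CPM (2.04 ± 0.26), and AOX1, an aldehyde oxidase, from 13.1 and 11.2 to 44.2 and 45.3 CPM (1.80 ± 0.24). Among regulators of BMP and TGF-beta signals, the ligand GDF5 rose from 8.15 and 7.73 to 26.9 and 28.2 CPM (1.68 ± 0.20), the BMP antagonist NOG (noggin) from 5.09 and 6.08 to 20.8 and 18.0 CPM (1.63 ± 0.20), and the co-receptor TGFBR3 (betaglycan) from 14 and 8.12 to 32.3 and 31.3 CPM (1.49 ± 0.20). Each of these 6 genes at least doubled in the mean. As for the lowered genes, no overlap between groups was a condition of their choice, and they were ranked by log2 change. The guidance cue SLIT2 rose from 9.96 and 10.1 to 29.1 and 31.0 CPM (1.49 ± 0.14), the potassium channel KCNK2 from 5.19 and 5.57 to 15.5 and 18.9 CPM (1.51 ± 0.20) and the lipid phosphatase-related PLPPR4 from 3.53 and 2.39 to 11 and 11.1 CPM (1.62 ± 0.18). The adhesion protein KIRREL3, the leucine-rich repeat protein LRRN4CL, the sulfotransferase CHST2 and the transcription factor POU2F2 completed the 15. IFI27 and IFI44L follow with their family. In cGAS against control libraries SLC7A14, AOX1, NOG, SLIT2, KCNK2, PLPPR4, LRRN4CL, CHST2 and POU2F2 were also called higher, while GDF5, TGFBR3 and KIRREL3 were not called. Differences of STING minus cGAS missed the threshold for AOX1 (0.38 ± 0.24), SLIT2 (-0.36 ± 0.14) and LRRN4CL (0.17 ± 0.18).

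In STING_YT against YT libraries 13 of these 15 genes were again called higher. SLC7A14 was at 0.264 and 0 CPM in YT and 5.66 and 5.44 CPM in STING_YT cells, GDF5 at 0.687 and 1.24 against 7.33 and 6.0 CPM and TGFBR3 at 3.06 and 3.04 against 19.7 and 19.2 CPM. The 2 exceptions were called in the opposite direction. POU2F2 was at 33.8 and 31.2 CPM in control and 79.9 and 85.8 CPM in STING cells (1.32 ± 0.10), but at 118 and 121 CPM in YT and 70.0 and 73.0 CPM in STING_YT cells (-0.74 ± 0.10), with an interaction of -2.06 ± 0.14 (limma adjusted p = 3.84e-07). CHST2 went from 4.67 and 4.94 to 12.7 and 14.6 CPM in the first pair of groups and from 32.5 and 23.1 to 14.5 and 15.1 CPM in the second (interaction -2.18 ± 0.24, adjusted p = 2.99e-05). With STING siRNA both genes thus reached similar levels from a low and from a high starting level.

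Across all genes the effect of STING siRNA on control cells and on YT cells could be compared over wholly separate libraries. For STING_YT against YT, 2229 genes (16% of those tested) were higher and 2502 (18%) lower, or 34.1% in either direction. Of the 853 genes higher in STING cells, 523 (61.3%) were called higher there and 28 lower. Of the 1231 lower genes, 895 (72.7%) were called lower and 30 higher. Read the other way, these shared calls were 23.5% of the genes higher and 35.8% of those lower in STING_YT. Among changes of at least 2-fold the share was 47 of 62 and 136 of 155. Over 13894 genes the log2 changes correlated at r = 0.546 (rho = 0.529), a description across genes that share 4 libraries in each comparison and are not independent replicates. The direct test of the difference called 1095 genes (7.88%), among them 125 of the 853 and 255 of the 1231, and all 58 genes called in opposite directions. Without STING_YT replicate 15 the calls in STING_YT against YT fell from 4731 to 3015 and those of the difference to 550. The latter numbered 2555 without YT replicate 3, and 583, 643 and 674 when STING replicates 13 or 14 or STING_YT replicate 16 were dropped.

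The genes of the pathway around STING showed no common direction, and the largest change after TMEM173 was at the step of cyclic dinucleotide transport. Of 13 measured genes of cytosolic DNA sensing and cyclic dinucleotide supply, 1 rose and 4 fell, or 38.5% called beside 15% of all genes. Their median change was -0.03 beside 0.00 over all genes. The sensor cGAS, listed as MB21D1, was at 9.60 and 6.14 CPM in control and 5.46 and 4.67 CPM in STING libraries (-0.52 ± 0.22, limma adjusted p = 0.124). It did not pass the test, although without control replicate 2 the difference was -0.81 (limma adjusted p = 0.0486). LRRC8A, the obligate subunit of the anion channels that carry cyclic dinucleotides between cells, fell from 123 and 133 to 51.3 and 46.5 CPM (-1.37 ± 0.09, adjusted p = 8.12e-08), and from 123 and 120.4 in YT to 38.0 and 42.5 CPM in STING_YT cells. Its partner LRRC8C fell by less, with a log2 change of -0.48. DDX41, a helicase with a DNA-sensing role, fell from 51.9 and 61.6 to 33.2 and 33.5 CPM (-0.75 ± 0.11). The nuclear DNA sensor IFI16 stood at 168 and 175 CPM in control and 246 and 247 CPM in STING cells (0.52 ± 0.13, limma adjusted p = 0.0119). The call of IFI16 was lost without any 1 of the 4 libraries, where its change lay between 0.49 and 0.55 and its adjusted p between 0.0516 and 0.0907. Of the 5 calls in this list, 2 to 3 remained in number when a library was left out.

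Of 19 genes for STING and its traffic, 4 rose and 5 fell, TMEM173 included (median -0.02). That was 47.4% called, beside 15% of all genes. AP1S1, a subunit of the clathrin adaptor that sorts STING after the Golgi, was at 41.3 and 52.4 CPM in control and 83.4 and 68.9 CPM in STING libraries (0.69 ± 0.13). ZDHHC7, one of the enzymes that add palmitate to STING, went from 163 and 197 to 253 and 253 CPM (0.49 ± 0.10). SSR2, of the translocon-associated complex, fell from 292 and 319 to 243 and 236 CPM (-0.35 ± 0.08), and NPC1, the lysosomal cholesterol exporter, changed by -0.54. AP1S1 lost its call without STING replicate 13 (0.56, limma adjusted p = 0.0518), ZDHHC7 without control replicate 1 (0.36, 0.053), and SSR2 without control replicate 2 (-0.28, 0.067) or STING replicate 14 (-0.33, 0.0746). Over the list, 3 to 6 calls stood with a library left out. Of 14 regulators of STING, 2 rose and 2 fell (median -0.08), or 28.6% called. ULK1, the autophagy kinase that phosphorylates STING, fell from 87.0 and 83.6 to 54.0 and 59.2 CPM (-0.58 ± 0.09). INSIG1, which holds sterol sensors in the endoplasmic reticulum, fell from 85.8 and 97.1 to 54.8 and 60.5 CPM (-0.66 ± 0.11), and its partner in sterol sensing SCAP rose from 47.7 and 49.0 to 68.9 and 66.8 CPM (0.48 ± 0.09).

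Of 13 kinases and factors downstream 1 rose, 1 fell and 11 did not pass (median -0.06), so that 15.4% were called beside 15% of all genes. TBK1 was at 16.4 and 13.1 CPM in control and 13 and 15.5 CPM in STING libraries (-0.04 ± 0.20) and IRF3 at 14.1 and 11.8 against 12.5 and 16.9 CPM (0.16 ± 0.16), with overlapping groups. The NF-kB subunit gene NFKB1 fell from 60.8 and 61.8 to 33.8 and 39.9 CPM (-0.72 ± 0.11, limma adjusted p = 2.31e-04) and from 163 and 147 in YT to 38.9 and 42.4 CPM in STING_YT cells, a larger fall (interaction -1.18 ± 0.15, adjusted p = 1.05e-04). Of 12 genes of cytosolic RNA sensing only TRAF3, a ubiquitin ligase shared by both sensing routes, was called (40.5 and 43.5 against 30.2 and 27.5 CPM, -0.53 ± 0.11). Its call was lost without STING replicate 14 (-0.46, limma adjusted p = 0.0649). Of 14 interferon receptor, JAK and STAT genes 4 fell and none rose (median -0.14), or 28.6% called. The transcription factor IRF1 fell from 138 and 139.7 to 76.8 and 73.7 CPM (-0.88 ± 0.08, adjusted p = 2.68e-06), the interferon-gamma receptor chain IFNGR2 from 62.9 and 79.1 to 39.3 and 39.6 CPM (-0.82 ± 0.11) and the type I receptor chain IFNAR2 from 24.1 and 21.0 to 14.5 and 12.1 CPM (-0.72 ± 0.14).

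Of 42 interferon-stimulated genes 4 rose and none fell, or 9.52% called beside 15% of all genes. The 4 were IFI6, given above, the mitochondrial protein IFI27, the IFI44-related IFI44L and the antiviral membrane protein IFITM1. IFI27 was at 5.35 and 4.72 CPM in control and 18.2 and 28.8 CPM in STING libraries (1.99 ± 0.26, limma adjusted p = 6.52e-05), and IFI44L at 7.21 and 8.52 against 16.6 and 38.5 CPM (1.57 ± 0.27, adjusted p = 9.55e-04). For IFITM1 the values were 68.3 and 76.2 against 102 and 153 CPM (0.78 ± 0.26, adjusted p = 0.0491). In all 4 genes STING replicate 14 was the highest of the 4 libraries compared, and STING replicate 13 was also above both controls. The members that did not pass showed how far the 2 STING libraries lay apart: the GTPase MX1 was at 11.7 and 11 CPM in control and 9.50 and 26.3 CPM in STING libraries, IFIT1 at 13.7 and 10.9 against 15.6 and 26.3 CPM and the ubiquitin-like ISG15 at 57.9 and 57.1 against 58.8 and 84.5 CPM. Averaged over the 42 genes, log2(CPM + 1) was 3.94 and 3.90 in the control libraries, 4.04 in STING replicate 13 and 4.49 in replicate 14. In 19 of the 42 genes both STING libraries lay above both controls, as in 29.9% of all genes tested. The median change of the list was 0.22 with both STING libraries, 0.35 without replicate 13 and 0.02 without replicate 14, so its size rested on replicate 14. IFITM1 lost its call without replicate 14 (0.49, adjusted p = 0.382), without control replicate 1 (0.71, 0.234) and without control replicate 2 (0.86, 0.126). IFI6, IFI27 and IFI44L kept theirs without any 1 library, with the smallest changes, 1.86, 1.67 and 0.99, found without replicate 14.

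**Figure D3:**
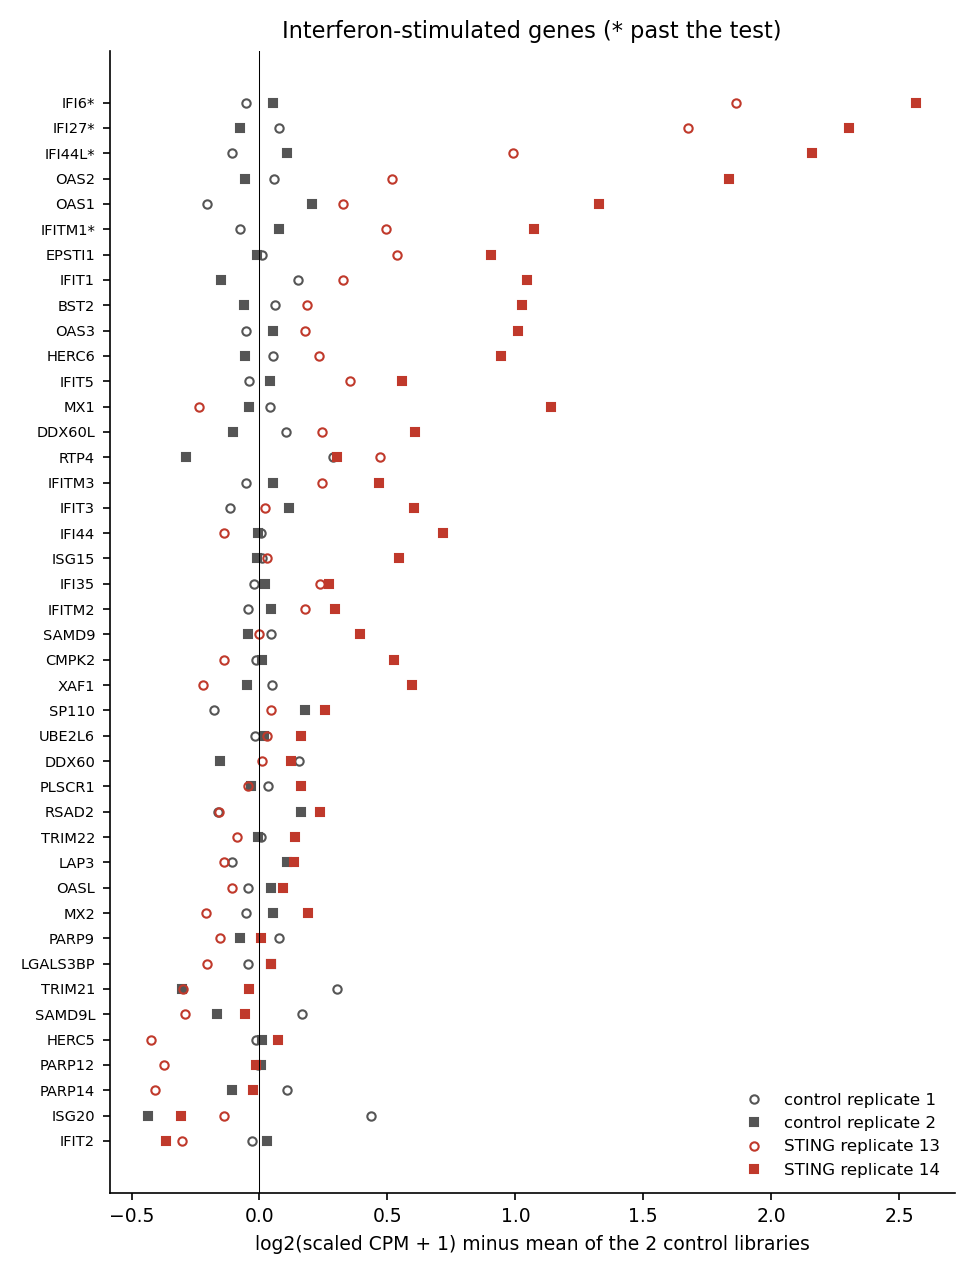
Interferon-stimulated genes in the 2 control and 2 STING libraries, as log2(CPM + 1) minus the mean of the control libraries, with asterisks on the 4 genes past the test. STING replicate 14 lies to the right of replicate 13 in 39 of 42 genes, and in 19 genes both STING libraries lie above both controls.

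In the other background 8 of the 42 genes were higher and 1 lower in STING_YT than in YT cells, beside 16% and 18% of all genes. The number of higher genes was thus near the share over all genes. IFI6 was at 147 and 208 CPM in YT and 711 and 752 CPM in STING_YT libraries, IFI27 at 11.3 and 10.7 against 24.9 and 28.4 CPM and IFI44L at 12.7 and 14.4 against 59.8 and 73.7 CPM, all called higher. IFITM1, at 150.2 and 210.3 against 163 and 192 CPM, was not called. No member had a called interaction. Against cGAS siRNA, which targets the step before STING, 39 of 42 genes were lower in STING cells (16% of all genes tested were lower). In cGAS against control libraries 39 of the 42 were themselves higher and none lower (median 2.60), beside 11.1% and 14.3% of all genes. The cGAS libraries held 3089.7 and 2762 CPM of IFI6, 244 and 230.4 CPM of IFI27 and 554 and 529 CPM of MX1, and the STING minus cGAS difference of MX1 was -5.00 ± 0.41 (limma adjusted p = 1.90e-07).

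The promoters of the genes that rose are shown for the motif that interferon-activated factors bind, the interferon-stimulated response element, searched as GAAANNGAAA on both strands in the 300 bases around each RefSeq start (GRCh38.p14). It was present in 26 of 36 interferon-stimulated gene promoters found (72.2%), in all 4 of the genes that rose, and in 3.65% of 27305 promoters. It did not separate the members that rose from those that did not. The stretches of IFI6 (chr1:27672231-27672393, minus strand) and IFI27 (chr14:94110583-94110695, plus strand) that hold the motifs read as follows, with motif matches in capitals.
IFI6: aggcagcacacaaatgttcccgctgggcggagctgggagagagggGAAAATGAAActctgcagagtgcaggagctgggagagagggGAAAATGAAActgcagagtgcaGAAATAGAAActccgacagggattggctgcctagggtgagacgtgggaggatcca
IFI27: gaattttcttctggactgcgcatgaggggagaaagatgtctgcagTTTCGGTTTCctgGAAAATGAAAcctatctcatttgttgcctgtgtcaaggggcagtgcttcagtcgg
IFI6 has 3 matches and IFI27 has 2 in these windows, 1 of the latter on the other strand.

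Of 33 measured NF-kB targets 6 fell and none rose (median -0.25), so that 18.2% were called, near the 15% of all genes. The apoptosis inhibitor BIRC3 fell from 17.7 and 17.3 to 7.82 and 7.62 CPM (-1.09 ± 0.15, limma adjusted p = 1.36e-04), the mitochondrial superoxide dismutase SOD2 from 126 and 116 to 61.4 and 58.6 CPM (-1.0 ± 0.15) and the adhesion molecule VCAM1 from 71.8 and 56.6 to 34.0 and 38.1 CPM (-0.81 ± 0.12). The chemokine CXCL8 was at a low level in control and STING cells (0.727 and 1.65 against 1.05 and 1.07 CPM), and the cytokine IL6 stood at 4.36 and 3.98 against 5.04 and 4.24 CPM. In STING_YT against YT cells 29 of the 33 fell and 1 rose (median -2.03), beside 18% and 16% of all genes. Of the 33, 24 had a called negative interaction, beside 4.53% of all genes. CXCL8 went from 493 and 146 CPM in YT to 1.67 and 2.08 CPM in STING_YT libraries (interaction -6.50 ± 0.56, adjusted p = 3.00e-06) and SOD2 from 739.7 and 547 to 59.5 and 68.5 CPM. The 2 YT libraries lay far apart for CXCL8, and both were far above the STING_YT libraries.

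Of 17 genes of MHC class I presentation 6 fell and none rose (median -0.32), or 35.3% called beside 15% of all genes. The peptide transporter TAP2 fell from 135 and 129 to 66.1 and 68.7 CPM (-0.96 ± 0.15, limma adjusted p = 4.79e-04) and the loading chaperone PDIA3 from 622 and 592 to 405 and 374 CPM (-0.64 ± 0.08). The light chain B2M, at 2848 and 2795 CPM in control and 2334 and 2494 CPM in STING libraries, did not overlap between groups but missed the threshold (-0.23 ± 0.13). Between 3 (without STING replicate 14) and 5 of the 17 stood with a library left out.

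Among sterol and fatty acid genes nearly every call was a fall. Of the cholesterol synthesis list 45% were called and of the sterol regulation and fatty acid list 47.8%, beside 15% of all genes. Of 20 enzymes of cholesterol synthesis 9 fell and none rose (median -0.32), with 6 to 7 called when a library was left out. MVD, which makes isopentenyl diphosphate, fell from 13.5 and 15.5 to 5.15 and 6.12 CPM (-1.23 ± 0.16, limma adjusted p = 6.45e-05). The late-step reductases TM7SF2 and DHCR7 fell from 10.7 and 10.5 to 4.25 and 3.54 CPM (-1.24 ± 0.19) and from 40.5 and 40.5 to 23.7 and 26.5 CPM (-0.67 ± 0.11). In STING_YT against YT cells 16 of the 20 fell and none rose (median -0.75), beside 18% and 16% of all genes. Of 23 genes of sterol regulation and fatty acids 10 fell and 1 rose (median -0.37), with 6 to 8 called when a library was left out and 6 without control replicate 1 or either STING replicate. The desaturases FADS2, FADS1 and SCD fell from 84.1 and 82.3 to 40.6 and 38.6 CPM (-1.05 ± 0.09), from 119 and 118 to 68.7 and 68.3 CPM (-0.78 ± 0.08) and from 144 and 142 to 89.2 and 93.2 CPM (-0.64 ± 0.08). The cGAS libraries held 173 and 183 CPM of FADS2 and 26.9 and 25.1 CPM of MVD. Of the 20 synthesis genes, 19 were lower in STING than in cGAS cells. In cGAS against control libraries 18 of the 20 were themselves higher and none lower (median 0.78), beside 11.1% and 14.3% of all genes.

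Among TGF-beta genes, 6 of 12 ligand and activation genes fell and 1 rose (median -0.41). That was 58.3% called, beside 15% of all genes. TGFB1 fell from 28.5 and 30.9 to 17.3 and 17.2 CPM (-0.75 ± 0.13, limma adjusted p = 7.50e-04) and the BMP antagonist GREM1 from 428 and 418 to 246 and 227 CPM (-0.84 ± 0.11), while follistatin (FST), which binds activin, rose from 202 and 204 to 378 and 383 CPM (0.91 ± 0.10). GREM1 stood at 232 and 172 CPM in YT and 250.1 and 236 CPM in STING_YT cells, and its fall in control cells differed from that (interaction 1.11 ± 0.16, adjusted p = 3.08e-04). Of 17 receptors and SMAD proteins 5 fell and 1, TGFBR3, rose (median -0.31), or 35.3% called. SMAD3, the main transducer, fell from 364 and 387 to 256 and 245 CPM (-0.58 ± 0.08), the co-receptor ENG from 92.5 and 89.7 to 57.1 and 59.2 CPM (-0.64 ± 0.10) and the BMP receptor BMPR2 from 219 and 178 to 131 and 134 CPM (-0.57 ± 0.10). Of 21 genes that TGF-beta raises in fibroblasts 13 fell and 1 rose (median -0.43), or 66.7% called. COL7A1, the anchoring fibril collagen, fell from 86.8 and 62.8 to 25.1 and 28.6 CPM (-1.43 ± 0.13, adjusted p = 1.62e-06), PMEPA1, a feedback inhibitor, from 21.2 and 21.9 to 10.6 and 10.6 CPM (-0.97 ± 0.12) and CTGF (now CCN2) from 632 and 637 to 383 and 349 CPM (-0.79 ± 0.15). Calls in the ligand list numbered 4 without any 1 of the 4 libraries. In the target list they numbered 6 without STING replicate 14 and 8 without each of the others.

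Of 21 collagens 9 fell and 1 rose (median -0.23), led by COL7A1, COL16A1 (57.2 and 51.0 against 28.8 and 25.7 CPM, -0.96 ± 0.17) and COL15A1 (28.1 and 23.6 against 15.5 and 15.6 CPM, -0.70 ± 0.13). The fibrillar collagen gene COL1A1 was at 18487 and 17883 CPM in control and 16224 and 16361 CPM in STING libraries (-0.16 ± 0.14) and did not pass. Of 38 other matrix genes 10 fell and 4 rose (median -0.13), among them the proteoglycan VCAN, which fell from 565 and 436 to 282 and 320.1 CPM (-0.72 ± 0.11). Of 23 contractile genes 11 fell and none rose (median -0.32). Called were 47.6% of the collagens, 36.8% of the other matrix genes and 47.8% of the contractile genes, beside 15% of all genes. The smooth muscle actin ACTA2, the marker of myofibroblasts, fell from 1753 and 1915 to 819 and 817 CPM (-1.16 ± 0.10, limma adjusted p = 1.21e-06), the crosslinker ACTN4 from 1905 and 1846 to 815 and 752 CPM (-1.26 ± 0.09) and SRF, the transcription factor of actin genes, from 251 and 257 to 130.0 and 129 CPM (-0.97 ± 0.11). With a library left out 6 to 9 collagens, 8 to 12 other matrix genes and 7 to 10 contractile genes stood. The contractile list and the other matrix list were lowest without STING replicate 14, at 7 and 8, and the collagens stood at 6 without control replicate 1 or either STING replicate.

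The contractile genes did not follow this course in YAP- and TAZ-depleted cells. There 10 of 23 were higher and 4 lower in STING_YT than in YT (median 0.28), beside 16% and 18% of all genes. Of the 23, 9 had a called positive interaction, beside 3.35% of all genes. ACTA2 was at 790.1 and 934 CPM in YT and 1160.2 and 1014 CPM in STING_YT cells (0.34 ± 0.10), with an interaction of 1.5 ± 0.14 (limma adjusted p = 6.15e-06). The tropomyosin TPM1 fell from 1445 and 1499.6 to 939 and 914 CPM (-0.67 ± 0.08) in the first pair of groups and stood at 616 and 699.6 against 681 and 665 CPM in the second (0.04 ± 0.08, interaction 0.70 ± 0.12, adjusted p = 0.00116). Of 24 YAP and TAZ targets 7 fell and 1 rose after STING siRNA (median -0.01), with 5 to 6 called when a library was left out and 5 without control replicate 2 or either STING replicate. With all libraries 33.3% of these targets were called, beside 15% of all genes. CYR61 (now CCN1) was not called, at 502 and 454 against 547 and 523 CPM.

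Of 28 focal adhesion genes 14 fell and 4 rose (median -0.23), so that 64.3% were called beside 15% of all genes. The lower ones were headed by ITGA8, given above, and the fibronectin receptor chain ITGA4 (15.8 and 14.6 against 5.25 and 5.69 CPM, -1.32), the vitronectin receptor chain ITGB3 (14.1 and 14.8 against 6.62 and 5.20 CPM, -1.17) and the adaptor LIMS1 (233 and 238 against 108 and 108 CPM, -1.12 ± 0.10). The collagen receptor chains ITGA1 and ITGA2 fell from 225 and 189 to 108 and 107 CPM (-0.93 ± 0.09) and from 256 and 214 to 111 and 119.7 CPM (-1.02 ± 0.11). The laminin receptor chain ITGA6 rose from 73.5 and 76.5 to 149 and 133 CPM (0.90) and the shared chain ITGB1 from 497 and 440.1 to 684 and 682 CPM (0.54). With a library left out 10 to 13 were called, 11 without control replicate 2 and 10 without STING replicate 14.

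**Figure D4:**
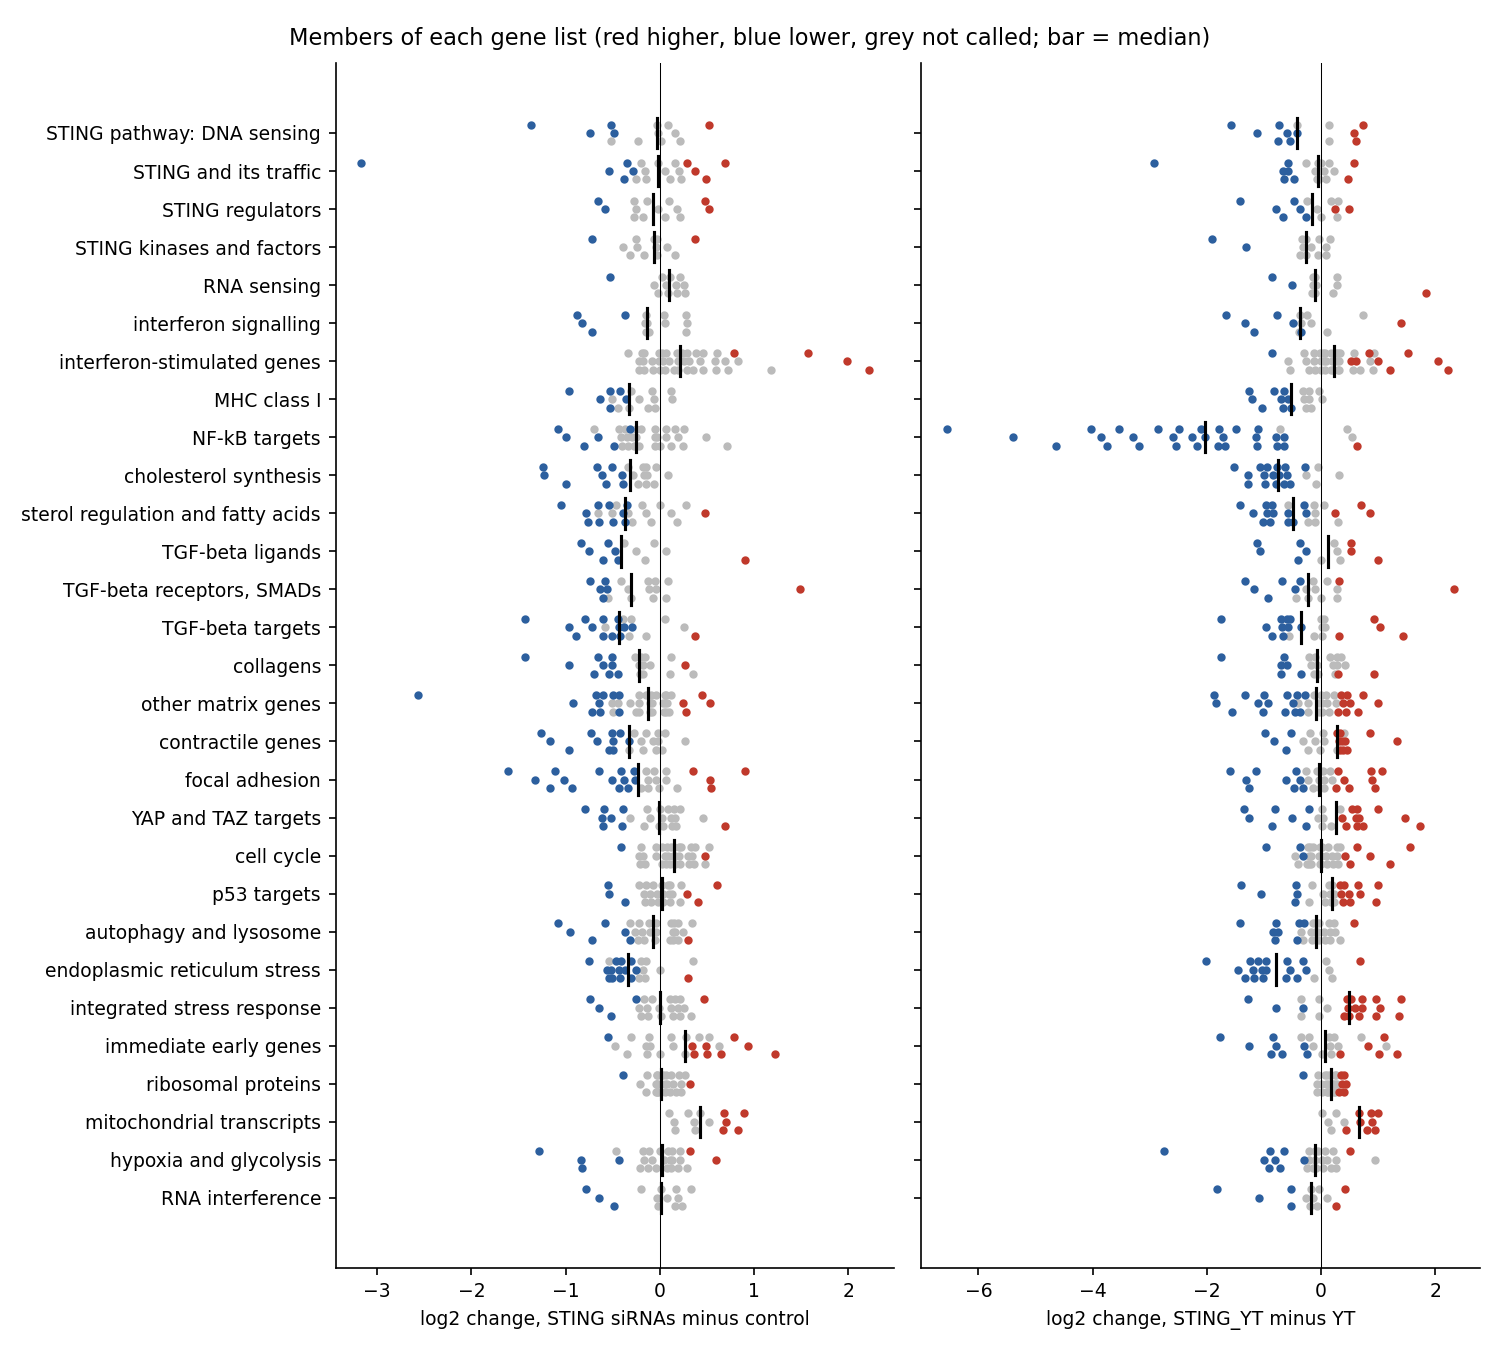
Log2 change of each measured member of 29 gene lists after STING siRNA, in control cells (left) and in YAP- and TAZ-depleted cells (right, wider axis), with red for higher, blue for lower, grey for not called and a bar at the list's median. NF-kB targets extend to the far left and contractile genes shift to the right in the second panel, while sterol, TGF-beta and endoplasmic reticulum lists lie left of 0 in the first.

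In the compartment where STING resides, 13 of 22 genes of endoplasmic reticulum stress fell and 1 rose (median -0.34). That was 63.6% called, beside 15% of all genes and 25% of the autophagy and lysosome list given below. The disulfide isomerases PDIA4 and PDIA6 fell from 223 and 203 to 134 and 119 CPM (-0.75 ± 0.13, limma adjusted p = 6.88e-04) and from 1227 and 1158 to 881 and 839 CPM (-0.47 ± 0.08). The chaperones HYOU1 and HSP90B1 fell from 189 and 189 to 134 and 131 CPM (-0.51 ± 0.08) and from 2270.2 and 2132 to 1538 and 1539 CPM (-0.52 ± 0.10). Of the same genes 17 fell and 1 rose in STING_YT against YT, beside 18% and 16% of all genes. With a library left out 4 to 8 genes were called, 8 without either control replicate, 7 with STING replicate 13 left out and 4 with replicate 14 left out. Of 28 autophagy and lysosome genes 6 fell and 1 rose (median -0.08), among them the lysosomal membrane protein LAMP2 (156 and 154 against 98.5 and 89.0 CPM, -0.72 ± 0.10). Without STING replicate 14 these were 4 calls.

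Of 24 immediate early genes 8 rose and 1 fell (median 0.27), beside 6.14% and 8.86% of all genes. This was the largest number of rises of any list, although the lists differ in size. The phosphatase DUSP5, a feedback inhibitor of ERK, rose from 24.8 and 24.2 to 56.8 and 60.3 CPM (1.22 ± 0.12, limma adjusted p = 4.80e-06) and the transcription factor EGR1 from 73.1 and 70.3 to 134 and 116 CPM (0.79 ± 0.13). With a library left out 4 to 6 of 24 were called, 5 without control replicate 1 or STING replicate 14 and 4 without STING replicate 13. In STING_YT against YT cells 5 of the 24 immediate early genes rose and 8 fell (median 0.07), beside 16% and 18% of all genes. Of the 24, 6 had a called negative interaction and 1 a positive one, beside 4.53% and 3.35% of all genes. Mitochondrial transcripts counted 5 rises and no fall of 13 in STING against control (median 0.43). Averaged over the list the groups overlapped, with log2(CPM + 1) at 10.14 and 9.43 in the control libraries and 10.07 and 10.44 in the STING libraries. MT-ND3, which did not overlap, was at 2433 and 1747 CPM in control and 3316 and 4416 CPM in STING libraries (0.89 ± 0.15). Without control replicate 1 there were 11 calls, without control replicate 2 there was 1 and without STING replicate 14 there was 1. The part of library quality in these values was not tested. Cell cycle genes, by contrast, were mostly not called, with 1 of 34 higher and 1 lower (median 0.15). The nuclear lamin LMNB1, at 29.6 and 31.4 CPM in control and 34.3 and 27.8 CPM in STING libraries, and the inhibitor CDKN1A, at 1053 and 1199.7 against 1214 and 1209 CPM, did not pass. The 2 calls were NUSAP1, a spindle protein (0.48), and the cyclin CCND1 (-0.41), and with a library left out 0 to 1 stood. edgeR or DESeq2 on the recovered reads called 4, adding the chromatin protein HMGB2 (0.49, edgeR adjusted p = 0.0463) and the kinetochore motor CENPE (0.37, adjusted p = 0.0384).

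Smaller lists held single strong members. Called were 23.1% of the hypoxia and glycolysis genes and 23.1% of the small RNA machinery, beside 15% of all genes. For ribosomal proteins, p53 targets and the integrated stress response the shares were 6.9%, 24% and 22.7%. Of 26 hypoxia and glycolysis genes 2 rose and 4 fell (median 0.03), or 4 calls without control replicate 1 and 3 without any other library, and the glucose transporter SLC2A3 fell from 194 and 189 to 79.5 and 77.3 CPM (-1.28 ± 0.08, limma adjusted p = 5.29e-08) and from 278 and 312 in YT to 43.9 and 42.5 CPM in STING_YT cells. Of 13 genes of the small RNA machinery, through which siRNAs act, 3 fell and none rose (median 0.02). DICER1, which cuts double-stranded RNA into small RNAs, fell from 153 and 134 to 79.7 and 85.5 CPM (-0.79 ± 0.09, adjusted p = 1.75e-05) and AGO2, which slices targets, from 156 and 137 to 93.8 and 93.0 CPM (-0.64 ± 0.11). Ribosomal proteins (1 higher and 1 lower of 29, median 0.01), p53 targets (3 and 3 of 25, median 0.02) and targets of the integrated stress response (1 and 4 of 22, median 0.00) showed no common direction. Their calls numbered 0 to 2, 2 to 4 and 3 with a library left out. For ribosomal proteins 0 were called with STING replicate 14 left out and 1 with control replicate 1 or STING replicate 13 left out. For p53 targets 2 were called with control replicate 2 or STING replicate 13 left out and 3 with STING replicate 14 left out, and for the stress response 3 with any 1 library left out. Of the cell markers, PDGFRA fell from 521 and 447 to 277 and 261 CPM (-0.84 ± 0.14) and THY1 rose from 466 and 490.1 to 720.4 and 669.9 CPM (0.54 ± 0.09), while the other 10 fibroblast markers were not called.

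Lowered transcripts held a pair of short sequences in their 3' untranslated regions (UTRs) more often than the other transcripts measured, as described here with no test. As background, an siRNA loaded into AGO2 pairs with its target along its whole length, and pairing of its 5' seed alone to 3' UTRs can lower other transcripts. The 9791 genes used averaged 5 CPM or more and had a 3' UTR of 50 bases or more in GENCODE 29. For each gene the transcript with the longest 3' UTR was taken, whether or not the cells expressed it. The log2 change in STING against control was related to the presence of each heptamer. Of 16380 heptamers, GTCATAT ranked first, with a log2 difference of -0.14 between genes with and without it after adjustment for UTR length and GC content. CTGGATA ranked second, at -0.13, and TGGATAA, which overlaps it by 6 bases, came next, at -0.11. These ranks come from the comparison itself, so the values are a description with no test. The same 3, in STING_YT against YT libraries, which played no part in the choice, ranked 2, 4 and 5 (-0.17, -0.16 and -0.14), behind TATTTAT. All 3 occur in the TMEM173 transcript, as do 9.74% of heptamers searched. All sites of the first 2 heptamers in TMEM173 and in the 3' UTRs of the most lowered genes are printed to show the shared letters, each from GENCODE 29 on GRCh38, 5' to 3' on the transcript strand, with the heptamer in capitals. The 2 sites of TMEM173 lie in its coding sequence and the others in 3' UTRs.
TMEM173 first site, chr5:139480813-139480835 minus: ctggcatgGTCATATtacatcgg
TMEM173 second site, chr5:139478351-139478373 minus: ttcgcttcCTGGATAaactgccc
ADAM19 first site, chr5:157479946-157479968 minus: ccattgggGTCATATgtttattt
ADAM19 second site, chr5:157480201-157480223 minus: tcctgactCTGGATAatttttag
CMTM6, chr3:32481909-32481931 minus: gctggcctGTCATATaaaacata
DIO2, chr14:80201798-80201820 minus: atatatttGTCATATgctcctag
PAFAH1B2 first site, chr11:117168051-117168073 plus: tggattatGTCATATataataat
PAFAH1B2 second site, chr11:117170387-117170409 plus: tgtctgtgGTCATATgttgaatg
MARVELD1 first site, chr10:97717464-97717486 plus: acaagattCTGGATAcctggaac
MARVELD1 second site, chr10:97718114-97718136 plus: atgcttttCTGGATAaagtttgg
ARL6IP1 first site, chr16:18793169-18793191 minus: tgtactatCTGGATActaaaatg
ARL6IP1 second site, chr16:18792908-18792930 minus: aagtgaatCTGGATAattgttca
EDEM2, chr20:35115415-35115437 minus: cataaccaCTGGATAattttttt
BMP2, chr20:6779963-6779985 plus: atattgtgGTCATATatatttaa
Of the 14 most lowered genes other than TMEM173, 11 had a 3' UTR in the annotation and 8 of those carried a site of GTCATAT or CTGGATA. GINM1, ITGA8 and INSC carried none. Of the 15 most raised genes, 2 carried a site, IFI44L and SLIT2.

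Across all 9791 genes, 1766 (18.0%) held GTCATAT or CTGGATA. The share was 31.2% of the 1085 lower genes, 37.6% of the 117 that fell at least 2-fold, 16.8% of the genes not called and 11.9% of the 729 higher genes. Read from the site side, 9.30% of the 8025 genes with neither heptamer were lower in STING than in control cells, 19.3% of those with GTCATAT alone, 17.3% of those with CTGGATA alone and 27.0% of the 189 with both. The median changes were 0.02, -0.08, -0.06 and -0.11 in that order. These shares and medians, and those that follow, were not adjusted for UTR length or GC content, unlike the differences that ranked the heptamers. The part of UTR length in them was not tested. With GTCATAT followed by A the share that fell was 26.8% of 272 genes, and with CTGGATA followed by A it was 25.6% of 316. In STING replicate 13 the median of the genes with GTCATAT was -0.07 and in replicate 14 -0.09. For genes with neither it was 0.03 and 0.01. The heptamers were chosen on these 2 libraries together, so the split adds no separate evidence. In STING_YT against YT, 19.8% of the genes with neither were lower, against 32.8% of those with either. With cGAS siRNA against the same control libraries the shares were 17.6% and 18.6%.

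**Figure D5:**
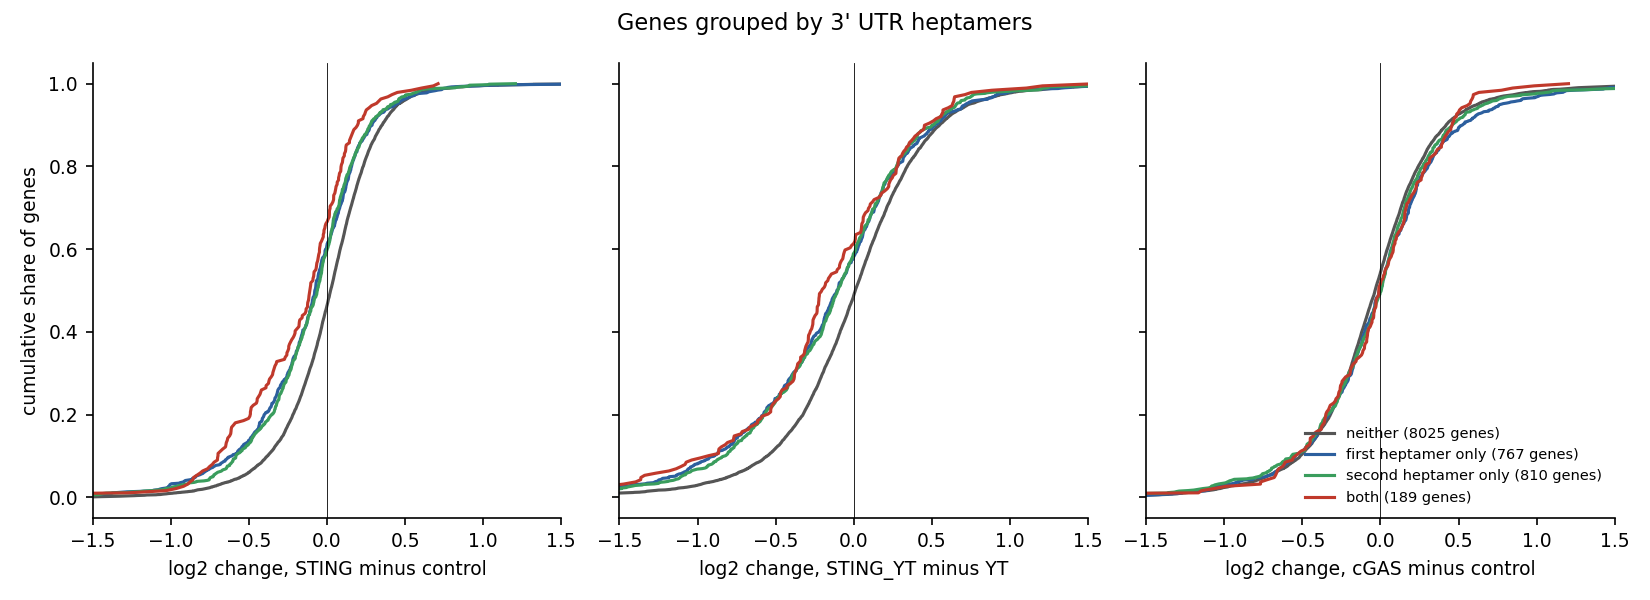
Cumulative share of genes (vertical axis) against log2 change, for genes whose 3' UTR holds neither heptamer, the first (GTCATAT) only, the second (CTGGATA) only or both, in 3 comparisons. The curves of genes with sites lie to the left of the grey curve in STING against control and STING_YT against YT, and near it in cGAS against control.

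Several lowered genes carry a site in the transcript taken, while LRRC8A has none. SMAD3 and DICER1 have 2 each, and COL4A2, ELN, ACTN4, LIMS1, ITGA2, LAMP2, ULK1, BIRC3, IFNAR2 and SLC2A3 have 1 each. The COL4A2 site, at chr13:110361562-110361584 on the plus strand, lies well before the end of the gene at 110513209. Whether the reads of COL4A2 came from a transcript with this site was not tested, and the gene is counted among the TGF-beta targets below. Among the lists, 3 of 13 lowered TGF-beta targets, 2 of 9 lowered cholesterol genes, 2 of 11 lowered contractile genes, 3 of 14 lowered focal adhesion genes and 2 of 3 lowered genes of small RNA machinery had a site. None of the 13 lowered endoplasmic reticulum stress genes and none of 6 lowered MHC class I genes had one. Most lowered genes thus had no site: of the 1085, 746 held neither heptamer, as did 642 of the 729 higher genes. The siRNA sequences are not used here, and whether these heptamers pair with the transfected siRNA was not tested. The part of such pairing, and of the fall of STING itself, in the changes described above was not tested.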

How the data were processed

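Polyadenylated RNA of 12 WI-38 libraries was sequenced with a 3' end kit, per the labels' protocols. Alignment and counting tools in the submitters' processing notes are STAR 2.5.3a and featureCounts, with edgeR and the build hg38. No gene annotation is given in the sources used here. The authors deposited 1 table of read counts divided by library-specific factors, here treated as a signal per gene and written as CPM. The deposited signal steps gave whole reads for 100% of values within 0.01 reads, and library totals of 17790774 to 20650727 reads. The planned test assumed CPM, and the log-scale test was kept.

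Tests used limma 3.58.1 in R 4.3.3 on log2(CPM + 1), with 1 fit over all 12 libraries in 6 groups (6 residual and 10.1 prior degrees of freedom), 13894 of 13937 genes at 1 CPM or more in at least 2 libraries, and Benjamini-Hochberg adjustment within each comparison at 0.05. Fold changes on this scale understate those of low genes. Scripts were tested on simulated data. Alternatives were edgeR 4.0.16 and DESeq2 1.42.0 on the recovered reads, which called 2043 genes (825 higher, 1218 lower) and 2101 (885 higher, 1216 lower) in STING against control, other pseudocounts, filters and scalings, and each library left out in turn. Standard errors are limma's, from the spread between libraries.

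Libraries were taken by their labels, while the comparison itself and the gene lists were chosen with earlier results of these data known. Genes were named by rule: TMEM173, the 15 most raised and 15 most lowered called genes that averaged 5 CPM or more and whose groups did not overlap, the members of each list with the smallest p (4 at most), and a fixed set of pathway genes. Other genes in the text were chosen after their values were seen. Of 13937 symbols, 12832 (92.1%) matched GENCODE 29, 283 of them through an older symbol in RefSeq GRCh38.p14. Some genes that the rule names are not reported here.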

Additional observations from a re-analysis of the deposited data

Results flagged for a closer look

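The STING siRNA effect differed between cells with and without YAP and TAZ siRNAs in 1095 genes (7.88% of those tested) by the interaction test of limma, at a Benjamini-Hochberg adjusted p of 0.05, over 2 libraries in each of 4 groups. Among the 174 genes named by the rule, 48 were among them. Those reported here follow. Each value is the interaction, the log2 change in STING_YT against YT minus that in STING against control, so a negative value means a lower change in YAP- and TAZ-depleted cells. Left out in turn, single libraries moved the count of 1095 between 550 (STING_YT replicate 15) and 2555 (YT replicate 3).

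For NF-kB signalling and its targets the interactions were NFKB1 -1.18, IKBKE -1.06, BIRC3 -1.51, VCAM1 -0.98, SOD2 -2.30, CXCL8 -6.50 and CCL2 -2.34. Of these 7 genes CXCL8, CCL2 and IKBKE did not pass the test in STING against control alone. Interferon and presentation genes gave TRIM25 -0.77, IFNGR2 -0.51, IFNAR2 -0.94, PDIA3 -0.62 and CALR -0.61. In the same families the genes not named by the rule included called positive interactions, 1 of RNA sensing and 1 of interferon signalling, TLR3 at 1.75 and SOCS1 at 1.12, and 1 among NF-kB targets, CSF1 at 1.01. Chaperones and sterol genes gave HYOU1 -0.68, PDIA6 -0.55, HMGCS1 -0.55 and INSIG1 -0.76.

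In cytoskeletal, muscle-type and YAP and TAZ target genes most interactions were positive: ACTA2 1.5, ACTN4 0.65, TPM1 0.70, CYR61 1.57, WTIP 0.62, GADD45B 0.96, MCAM 0.60 and MAP2 1.52, whereas the pericyte gene RGS5 gave -1.79. Matrix and adhesion genes were mixed, with ADAM19 0.68, COL16A1 0.89, COL15A1 0.98, ITGA1 0.56, ITGA2 -0.57 and PLAT -0.91. Growth factors, their receptor and regulators, with the deiodinase DIO2 and the membrane protein CMTM6, gave GREM1 1.11, FST -0.68, BMP2 -1.14, BMPR2 -0.61, DIO2 0.53 and CMTM6 -0.51. The transcription factor POU2F2 gave -2.06 and the sulfotransferase CHST2 gave -2.18, the pair called in opposite directions among the most raised genes.

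Stress, growth and metabolic genes gave DDIT4 1.14, CHAC1 -0.62, STC2 -0.50, DUSP5 -0.92, CCND1 -0.55, HMGB2 1.07 and SLC2A3 -1.46, and DICER1 gave -1.04. The cause of these differences was not tested.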

How the results depend on the processing

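The fall of TMEM173 kept its direction and its call under every alternative run, between -2.28 with a pseudocount of 4 and -3.75. The number of genes changed in STING against control lay between 1529 (constant prior) and 2700 (a fit of the 2 groups alone) over the settings that kept all libraries, beside 2084, and between 879 and 1317 with 1 library left out. With 1 library left out STING_YT against YT gave 3015 to 5315 genes beside 4731, STING against cGAS 2971 to 3342 beside 4670, and the test of the difference between backgrounds 550 to 2555 beside 1095. The last count was 703 with a constant prior. An arm left with 1 library was assumed to vary like the other groups. Fewer libraries were compared in these fits, and the cause of the spread among them was not tested. No value of a named gene reversed its direction. With a library left out 616 gene results held their side of the threshold, 78 lost their call and 2 gained one, and under the other settings 1525 held, 21 lost and 15 gained. The heptamer medians were alternatives added after seeing the data. No paired analysis was possible because each replicate number occurs in 1 group only. With 2 libraries a side, a change that missed the threshold is not shown to be absent, and levels under 3 reads in a library are not told from 0.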
